A study of Mus musculus with 12 samples.

Results

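Genes of cholesterol and fatty acid synthesis were examined in RNA bound to tagged ribosomes of enteric glia, which support the neurons of the gut wall. All libraries also held RNA of other cells, such as smooth muscle, so the levels cannot be assigned to glia alone. The 35 genes were listed by name, with earlier results of these data known. They were taken where the table of deposited values gives that name to a locus with an annotated Ensembl transcript. Of these, 32 had a locus of their own among 24394 gene symbols, and 31 reached 1 FPKM (fragments scaled to transcript length and to the mapped total) in at least 3 of 12 libraries. Abcg1, a cholesterol exporter, lay between 0.02 and 0.69 FPKM and was not tested. Fdps, Srebf1 and Tm7sf2 appear only in loci merged with other genes, so their values belong to the merged locus: Fdps with Gm43738 and Rusc1, Tm7sf2 with Vps51, Gm28374 and Zfpl1, and Srebf1 with Mir6922. Mir6922 is annotated inside Srebf1, on the same strand and over one of its exons (GRCm38).

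The 4 groups held 3 libraries each: DNBS_GR159897, Saline_GR159897, DNBS_Vehicle and Saline_Vehicle. DNBS, a hapten that gives colitis, was given as an enema of 5 mg in 50% ethanol, 48 h before tissue was taken, and the other enema was 0.1 mL of saline. GR159897, which blocks the neurokinin-2 receptor, was injected daily at 0.5 mg/kg in 0.1% DMSO over 3 days, beginning 24 h before DNBS, and the vehicle was 0.1% DMSO. All mice were C57BL/6 with the genotype Sox10::CreERT2+/- / Rpl22tm1.1Psam/J, in which a Cre recombinase that needs tamoxifen acts in cells that use Sox10 and tags the ribosomal protein Rpl22. All had chow with tamoxifen citrate at 400 mg/kg for 2 weeks and then plain chow for 1 week. DNBS_GR159897 held 2 females and 1 male, and every other group held 1 female and 2 males. Ethanol is listed for the DNBS enema only, so effects of DNBS and ethanol cannot be told apart. Age is not stated. The labels number the libraries as replicates without saying that each is a separate mouse, so p-values measure the spread between these libraries. In tissue RNA of this kind, fewer cells of a type and less RNA per cell cannot be told apart.

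In the mevalonate pathway, acetyl-CoA units are joined into isoprenoids and then squalene, which the sterol enzymes fold and trim into cholesterol. Both this pathway and fatty acid synthesis are driven by the SREBP transcription factors, which Scap carries out of the endoplasmic reticulum when sterols run low and which the Insig proteins hold back when sterols are plentiful. Srebf2 encodes the SREBP that acts mainly on sterol genes, and Srebf1 encodes those with more weight on fatty acid genes. Glia make much of the lipid of nervous tissue, and Scd2 is the stearoyl-CoA desaturase best known from brain and nerve.

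SREBPs bind sterol response elements, commonly together with NF-Y, which binds CCAAT, and Sp1, which binds GGGCGG. RefSeq promoters (GRCm38.p6) were found for 27 of the 35 genes, and the 250 bases upstream of each start were searched on both strands. None was found for Abcg1, Fdft1, Fdps, Npc1, Scd1, Scd2, Sqle and Stard4, so the shares below leave these genes out. The sterol element TCACNCCAC was in 1 of the 27 genes (3.70%), Hmgcs1, at position -137 from the start, and in 1.23% of 27025 genes. The looser TCANNCCA, which includes the first motif, was in 6 of 27 genes (22.2%) and in 15% of all genes. CCAAT was in 21 of 27 (77.8%) and in 37.5% of all genes, and GGGCGG in 22 of 27 (81.5%) and in 35.4% of all genes. A match is a run of letters and not a measured binding site. Of the 4 genes that passed the test for DNBS, Npc1 had no promoter among those found. The upstream windows are shown for the others, Fasn, Nsdhl and Ebp. Windows are also shown for Hmgcs1, Idi1 and Insig1, which in 1 library were several times the median of the other 11. Each is written 5′ to 3′ on the strand of its gene, and capitals mark TCACNCCAC and CCAAT, read as ATTGG where it lies on the other strand. In Fasn a CCAAT and an ATTGG overlap.
Fasn, chr11:120824548-120824797, minus strand: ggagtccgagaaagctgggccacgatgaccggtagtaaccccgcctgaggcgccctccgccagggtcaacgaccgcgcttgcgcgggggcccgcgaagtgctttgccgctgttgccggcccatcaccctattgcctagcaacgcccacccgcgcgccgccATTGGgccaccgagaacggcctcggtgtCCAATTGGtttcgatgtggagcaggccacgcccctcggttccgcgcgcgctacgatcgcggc
Nsdhl, chrX:72918271-72918520, plus strand: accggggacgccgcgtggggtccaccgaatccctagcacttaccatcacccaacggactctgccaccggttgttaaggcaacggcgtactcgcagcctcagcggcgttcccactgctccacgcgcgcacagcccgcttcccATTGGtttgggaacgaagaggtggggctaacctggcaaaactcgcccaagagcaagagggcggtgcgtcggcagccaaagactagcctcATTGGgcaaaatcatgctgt
Ebp, chrX:8193513-8193762, minus strand: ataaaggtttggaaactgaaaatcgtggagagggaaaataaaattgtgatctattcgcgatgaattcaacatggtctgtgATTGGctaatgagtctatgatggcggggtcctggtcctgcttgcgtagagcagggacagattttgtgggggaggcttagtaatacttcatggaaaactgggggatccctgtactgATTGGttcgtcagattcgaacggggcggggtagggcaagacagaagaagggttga
Hmgcs1, chr13:119690101-119690350, plus strand: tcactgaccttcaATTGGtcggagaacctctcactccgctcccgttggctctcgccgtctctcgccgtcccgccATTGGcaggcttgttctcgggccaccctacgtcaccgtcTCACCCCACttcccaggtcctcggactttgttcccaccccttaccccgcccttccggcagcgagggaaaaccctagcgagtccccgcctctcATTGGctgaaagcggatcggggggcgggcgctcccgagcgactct
Idi1, chr13:8885356-8885605, plus strand: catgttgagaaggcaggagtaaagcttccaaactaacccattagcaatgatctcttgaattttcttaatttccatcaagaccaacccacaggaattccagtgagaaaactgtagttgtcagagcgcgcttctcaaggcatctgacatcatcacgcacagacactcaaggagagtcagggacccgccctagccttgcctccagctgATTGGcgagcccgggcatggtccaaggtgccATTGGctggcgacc
Insig1, chr5:28071162-28071411, plus strand: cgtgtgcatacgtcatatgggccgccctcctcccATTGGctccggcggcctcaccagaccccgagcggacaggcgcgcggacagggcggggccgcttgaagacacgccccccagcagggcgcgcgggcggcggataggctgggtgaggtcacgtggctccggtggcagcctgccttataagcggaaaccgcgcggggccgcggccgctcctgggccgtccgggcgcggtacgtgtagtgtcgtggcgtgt

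Some libraries stood apart. DNBS_GR159897 replicate 1 held little glial RNA, with S100b at 1.17 FPKM and Sox10 at 1.3 FPKM, and much epithelial RNA, with 10 epithelial markers summing to 1070 FPKM against at most 29.1 FPKM elsewhere. Only 22.6% of its summed FPKM lay on annotated loci. That share was 59.5% ± 21.4 in DNBS libraries and 85.6% ± 7.94 in saline libraries (SD, n = 6 each). Sox10 itself lay between 1.3 and 6.79 FPKM in DNBS_GR159897 and between 141 and 239 FPKM in Saline_GR159897. It overlapped in the vehicle arm, with 9.04, 183.96 and 127.1 FPKM in DNBS_Vehicle and 178.71, 15.43 and 247.53 FPKM in Saline_Vehicle. S100b was at 94.03 and 134.52 FPKM in DNBS_GR159897 replicates 2 and 3. The depth of each library is unknown, because FPKM does not keep it.

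The highest means over the 12 libraries, on the FPKM scale, were those of Scd2 (134), Npc2 (74.2), Pmvk (44.7) and Hmgcs1 (32.4). Npc2 carries cholesterol inside lysosomes, Pmvk is phosphomevalonate kinase, and Hmgcs1 makes the HMG-CoA that opens the mevalonate pathway. Scd2 averaged 54.6 ± 17.4 FPKM in DNBS_GR159897, 228 ± 83.0 FPKM in Saline_GR159897, 86.4 ± 25 FPKM in DNBS_Vehicle and 165 ± 158 FPKM in Saline_Vehicle (SD, n = 3 each). Hmgcs1 averaged 27.0 ± 8.36 FPKM in DNBS_GR159897, 45.9 ± 39.7 FPKM in Saline_GR159897, 25.2 ± 9.40 FPKM in DNBS_Vehicle and 31.5 ± 13.6 FPKM in Saline_Vehicle, and it passed the test in none of the 6 comparisons. The spread within groups set the genes far apart. Its SD was 0.20 for Acaca, 0.28 for Scap and 0.36 for Npc1 on the scale of log2(FPKM + 1), and 1.33 for Scd1 and 1.42 for Scd2. The added 1 narrows the spread of low genes such as Acaca, which lay between 1.02 and 3.38 FPKM. For Scd2, Saline_Vehicle replicate 2 was at 8.45 FPKM, against 324.03 and 161.74 FPKM in the others of its group.

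**Figure D1:**
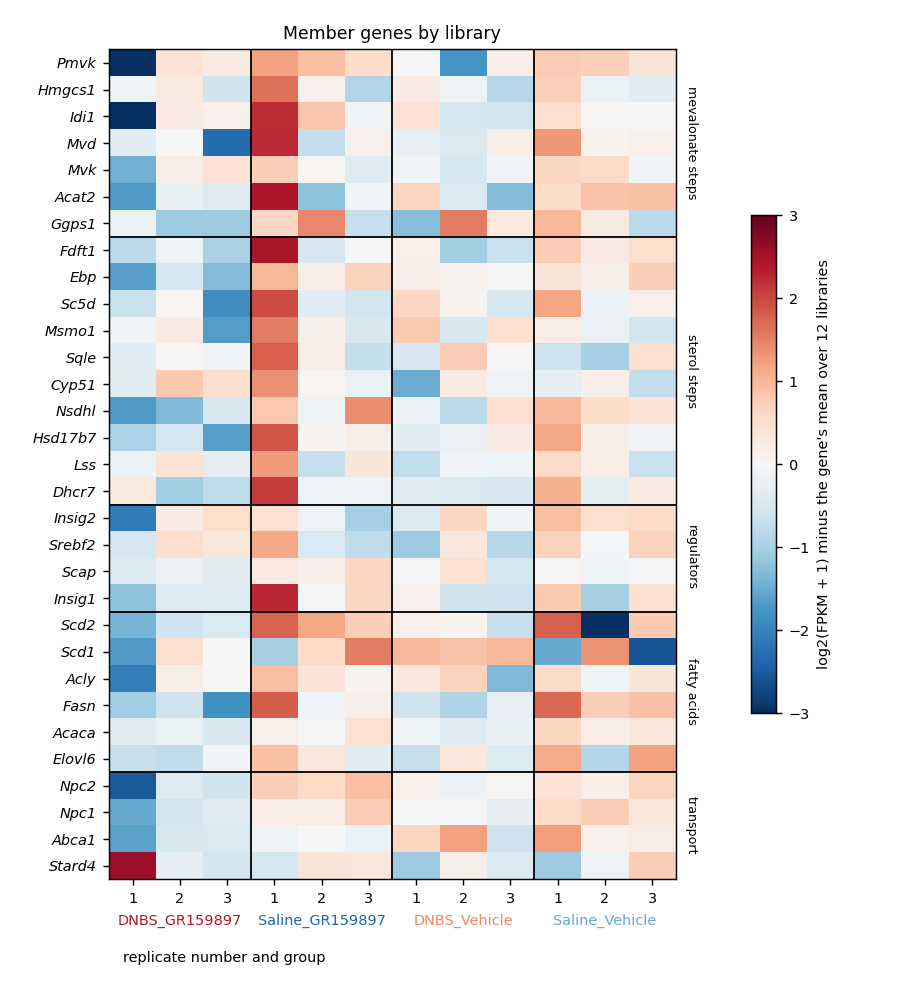
Log2(FPKM + 1) of the 31 tested genes (rows, ordered by role) in each of the 12 libraries (columns, by group and replicate number), minus the mean of the gene over all libraries. Colour runs from blue (lower) to red (higher) and stops at 3 either way. Saline_GR159897 replicate 1 is red over nearly all mevalonate and sterol genes, and DNBS_GR159897 replicate 1 is blue for many genes but red for Stard4.

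With DNBS, most genes of the pathway had lower values in both drug arms. Averaged over the arms, 29 of the 31 genes had a negative log2 fold change of FPKM + 1 and 4 passed the test (limma, adjusted p under 0.05), all 4 lower: Fasn, Nsdhl, Npc1 and Ebp. Among all 12777 genes tested, 61.2% had negative changes, and 6.83% passed as lower, 2.76% as higher and 9.6% in either direction. The median change was -0.74 over the 31 genes and -0.18 over all genes. Scaling each library by median-of-ratios size factors moved the median of all genes to -0.01, and that of the pathway to -0.53 with 27 genes negative, of which only Fasn passed. With the annotated share as a term in the model, 24 genes were negative, the median over the 31 was -0.33 and 0 passed, with Fasn at -1.40 and an adjusted p of 0.257. The part of that share in the result was not tested further.

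Among the genes of fatty acid synthesis, Fasn changed most. It encodes fatty acid synthase, which makes palmitate. It had 2.12, 3.17 and 0.82 FPKM in DNBS_GR159897 against 21.38, 5.04 and 6.25 FPKM in Saline_GR159897. In the vehicle arm it had 3.13, 2.44 and 4.41 FPKM in DNBS_Vehicle against 19.97, 9.76 and 10.78 FPKM in Saline_Vehicle. All 6 DNBS libraries lay below all 6 saline libraries, with means of 2.68 ± 1.21 FPKM with DNBS and 12.2 ± 6.92 FPKM with saline (SD, n = 6 each), a 4.55-fold lower level with DNBS. Its log2 change was -1.75 ± 0.37 (SE; limma adjusted p = 0.0161), and it stayed past the threshold in 24 of 25 alternative analyses. Fasn is on chromosome 11 at 120805846 to 120824547, minus strand (GRCm38). Acaca, the carboxylase that feeds it with malonyl-CoA, had 1.32 ± 0.234 FPKM with DNBS and 2.50 ± 0.580 FPKM with saline (SD, n = 6 each), again with no overlap, and did not pass (-0.58 ± 0.21, adjusted p = 0.0889). Of the transcript sequence of Acaca, 30.3% recurs in other annotated genes, so part of its reads could be assigned to those. Another 61 loci named Acaca have no annotated transcript and are not in these values. They summed to 1.61 to 202.74 FPKM with DNBS and 1.12 to 25.96 FPKM with saline, so the lower level holds for the annotated locus only. Acly, which makes cytosolic acetyl-CoA, had a change of -0.72, and the elongase gene Elovl6 one of -0.77. Scd2 was at -0.97 ± 0.71. None of these 3 passed the test. For Elovl6, 19 loci without an annotated transcript summed to 1.92 to 31.56 FPKM with DNBS and 0.94 to 12.24 FPKM with saline.

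Among the regulators, the locus of Srebf1 and Mir6922, on chromosome 11 at 60199089 to 60222581 for Srebf1, fell most. It had 11.59, 8.78 and 12.57 FPKM in DNBS_GR159897 against 141.02, 65.1 and 32.12 FPKM in Saline_GR159897. In the vehicle arm it had 14.37, 9.56 and 24.72 FPKM in DNBS_Vehicle against 92.3, 57.2 and 76.49 FPKM in Saline_Vehicle. No DNBS library reached the lowest saline library, and the means were 13.6 ± 5.81 FPKM with DNBS and 77.4 ± 37.1 FPKM with saline (SD, n = 6 each), 5.69-fold lower with DNBS. The log2 change was -2.37 ± 0.39 (limma adjusted p = 0.00651), which was called in 24 of 25 alternatives and lost with the annotated share as a term (adjusted p = 0.136). Srebf2 had 7.11, 15.37 and 13.75 FPKM in DNBS_GR159897 against 24.47, 7.44 and 5.81 FPKM in Saline_GR159897. It had 4.44, 13.65 and 5.38 FPKM in DNBS_Vehicle against 17.79, 10.22 and 17.81 FPKM in Saline_Vehicle. The groups overlapped in both arms, and the change of Srebf2 did not pass (-0.42 ± 0.40, adjusted p = 0.521). Scap (-0.35), Insig1 (-1.04) and Insig2 (-0.42) were also negative without passing.

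**Figure D2:**
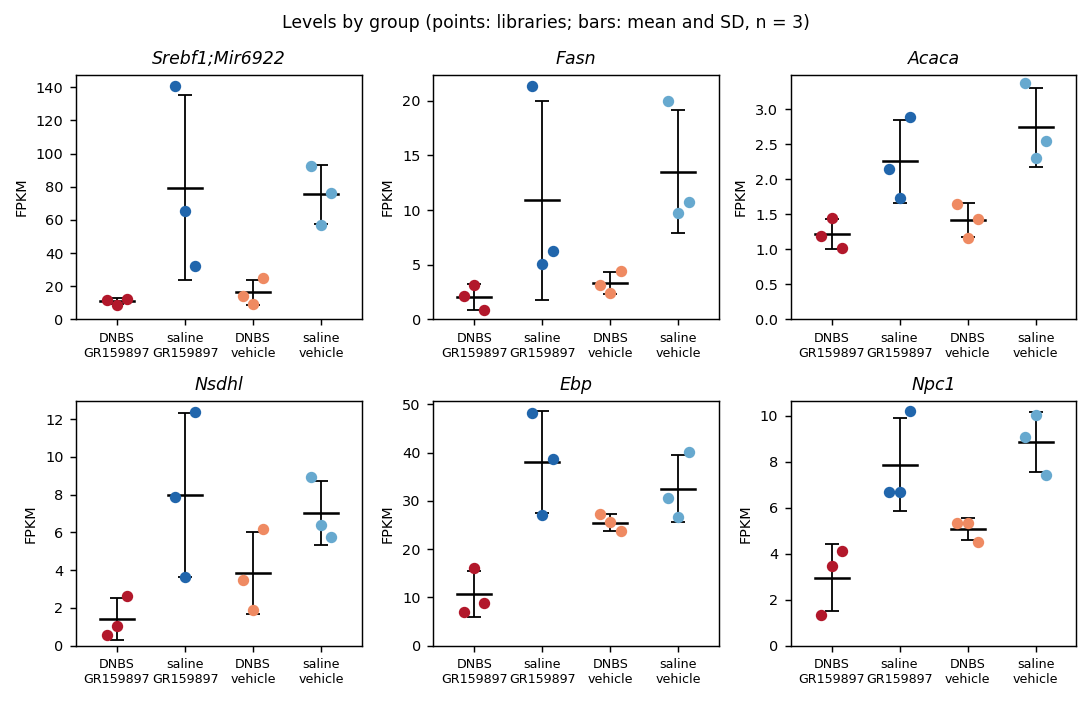
FPKM of the Srebf1 and Mir6922 locus, Fasn, Acaca, Nsdhl, Ebp and Npc1, with a point for each library and bars for the mean and SD of each group (n = 3). For the Srebf1 locus, Fasn, Acaca and Npc1 every DNBS library lies below every saline library, whereas Nsdhl and Ebp overlap in the vehicle arm.

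Of the sterol steps, all 10 tested sterol genes had negative changes, with a median of -0.84, and 2 of them passed. Nsdhl, which takes part in removing methyl groups from the sterol ring, had 0.56, 1.03 and 2.65 FPKM in DNBS_GR159897 against 7.87, 3.66 and 12.36 FPKM in Saline_GR159897. In the vehicle arm Nsdhl had 3.49, 1.90 and 6.17 FPKM in DNBS_Vehicle against 8.93, 6.4 and 5.75 FPKM in Saline_Vehicle. The groups were apart in the GR159897 arm and overlapped in the vehicle arm. The average change of Nsdhl was -1.33 ± 0.35 (limma adjusted p = 0.0327), called in 11 of 25 alternatives. The adjusted p was 0.0774 without Saline_GR159897 replicate 1 and 0.0526 without DNBS_GR159897 replicate 1.

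Ebp, the sterol isomerase, had 6.98, 15.99 and 8.92 FPKM in DNBS_GR159897 against 48.23, 27.15 and 38.69 FPKM in Saline_GR159897. It had 27.20, 25.53 and 23.70 FPKM in DNBS_Vehicle against 30.64, 26.63 and 40.14 FPKM in Saline_Vehicle. The gap was wide in the GR159897 arm, while in the vehicle arm the highest DNBS library lay above the lowest saline library. The change of Ebp averaged -1.05 ± 0.31 (limma adjusted p = 0.0481) and was called in 7 of 25 alternatives. It was at -0.96 with an adjusted p of 0.110 without Saline_GR159897 replicate 1, and at -0.94 with 0.0426 without DNBS_GR159897 replicate 1. Hsd17b7, a sterol reductase, was next (-1.12 ± 0.37, adjusted p = 0.0733). Fdft1, squalene synthase, was at -1.16 ± 0.47 (adjusted p = 0.133), and 14.1% of its transcript sequence recurs in other genes. Another 6 loci named Fdft1 have no annotated transcript and are not in these values. They summed to 1.49 to 47.66 FPKM with DNBS and 0.22 to 4.84 FPKM with saline, so the lower level holds for the annotated locus only. Sqle, squalene epoxidase, and Cyp51, the first demethylase of the ring, were nearest to 0 at -0.04 and -0.13. The last reductase, Dhcr7, was at -0.94, the desaturase Sc5d at -0.74, lanosterol synthase (Lss) at -0.35 and the methyl oxidase Msmo1 at -0.24. The merged locus of Tm7sf2, a sterol reductase, was at -0.58 (adjusted p = 0.175).

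Of the mevalonate steps, all 7 tested genes had negative changes, from -1.51 for Pmvk to -0.37 for Hmgcs1, with a median of -1.06, and 0 passed. An unadjusted p under 0.05 was reached by 1 of the 7, and by 2561 lower genes of all 12777. Pmvk had 1.98, 46.51 and 41.88 FPKM in DNBS_GR159897 against 81.30, 66.35 and 51.11 FPKM in Saline_GR159897. In the vehicle arm it had 33.86, 9.57 and 39.97 FPKM in DNBS_Vehicle against 59.79, 58.11 and 45.65 FPKM in Saline_Vehicle. Within each arm the DNBS libraries were the lower ones, with 1 library far below the others in each. The change of Pmvk was -1.51 ± 0.63 (limma adjusted p = 0.142). Acat2, the thiolase that makes acetoacetyl-CoA, was at -1.14, and 39.8% of its sequence recurs in other genes, among them Acat3. Idi1, the isomerase of isopentenyl diphosphate, was at -1.16 (17.7% of its sequence recurs elsewhere) and Mvd, the decarboxylase before it, at -1.06. Mevalonate kinase (Mvk) was at -0.52 and Ggps1, which makes geranylgeranyl diphosphate, at -0.61. For Ggps1, 3 loci without an annotated transcript summed to 0.15 to 9.59 FPKM with DNBS and 0.18 to 5.57 FPKM with saline. The merged locus of Fdps, the synthase of farnesyl diphosphate, was at -1.21 (adjusted p = 0.0912).

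Among the transport genes, Npc1, which exports cholesterol from lysosomes, had 1.33, 3.46 and 4.10 FPKM in DNBS_GR159897 against 6.70, 6.68 and 10.20 FPKM in Saline_GR159897. It had 5.34, 5.35 and 4.50 FPKM in DNBS_Vehicle against 9.07, 10.02 and 7.44 FPKM in Saline_Vehicle. All 6 DNBS libraries were below all 6 saline libraries, with means of 4.01 ± 1.5 FPKM with DNBS and 8.35 ± 1.62 FPKM with saline (SD, n = 6 each). The change of Npc1 was -0.95 ± 0.27 (limma adjusted p = 0.0427) and was called in 6 of 25 alternatives, with an adjusted p of 0.0747 without Saline_GR159897 replicate 1 and 0.0521 without DNBS_GR159897 replicate 1. Its exons overlap those of Rmc1 on the other strand, and the files do not say whether strand was used in counting, so reads of the pair may be mixed. Npc2, its partner in the lysosome, had 49.5 ± 22.0 FPKM with DNBS and 99.0 ± 16.6 FPKM with saline (SD, n = 6 each), also without overlap, and did not pass (-1.17 ± 0.39, adjusted p = 0.0743). Abca1, which exports cholesterol to lipoproteins, was at -0.43 ± 0.36.

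Stard4, a carrier of sterols between membranes, and Scd1 were the 2 genes with positive changes, at 0.11 ± 0.52 and 0.54 ± 0.65, and neither passed. Stard4 was at 19.42 FPKM in DNBS_GR159897 replicate 1, the library with epithelial RNA, and at most 4.74 FPKM in any other. Genes whose 6 DNBS libraries all lay below the 6 saline libraries were thus Fasn, Acaca, Npc1 and Npc2, 4 of 31, beside the Srebf1 locus; 4.29% of all genes did so. No gene of the 31 lay above in all, against 1.74% of all genes.

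**Figure D3:**
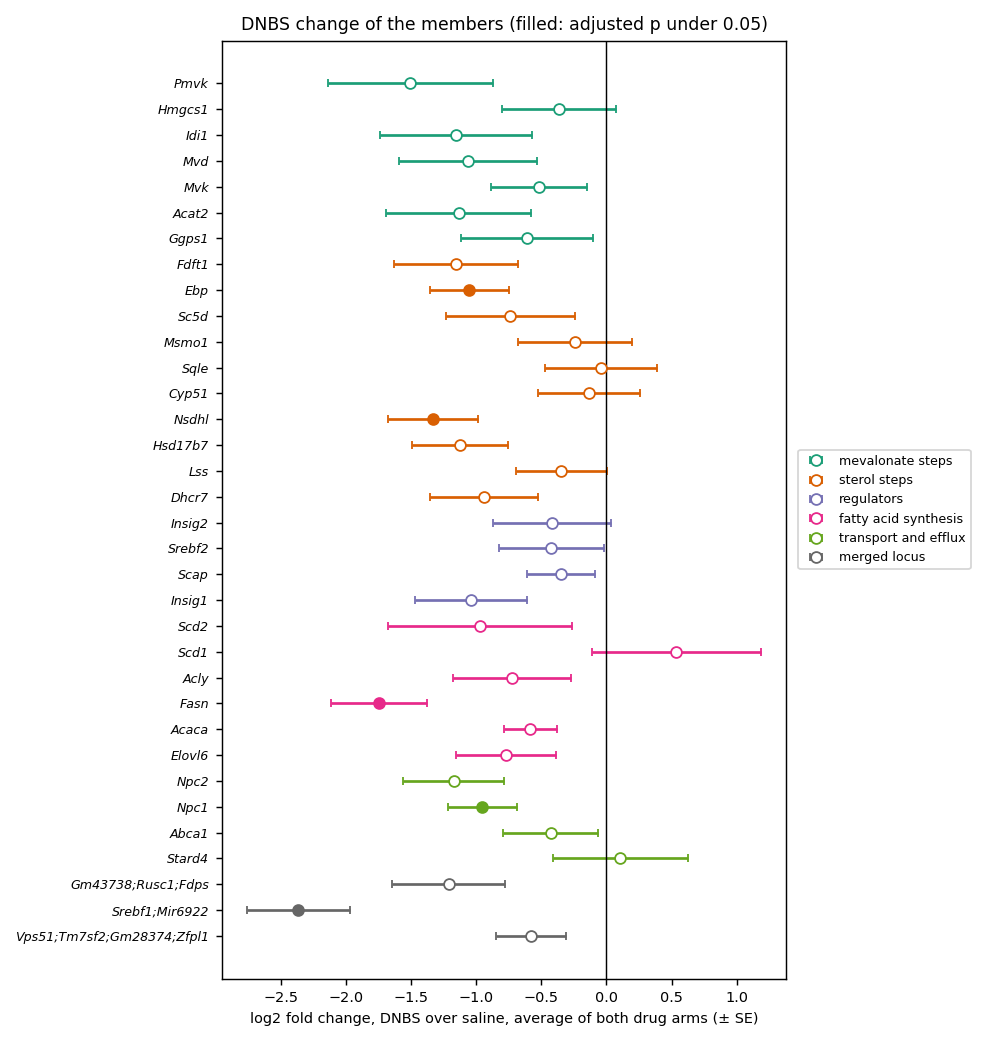
Log2 fold change of FPKM + 1, DNBS over saline and averaged over both drug arms, for the 31 tested genes and the 3 merged loci (rows, coloured by role), with bars of 1 SE. Filled points passed the test. Points lie left of 0 except those of Scd1 and Stard4, and the Srebf1 locus lies farthest left at -2.37.

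Markers of other cells were set beside these changes. The summed FPKM of 6 neutrophil markers ranged between 9.14 and 574 in DNBS libraries (median 148) and between 0.34 and 12.1 in saline libraries (median 0.565), so the lowest DNBS library lay inside the saline range. Of 9 glial markers 7 were summed, without Gfap, which has blank values, and the sum lay between 10.1 and 269 FPKM in DNBS_GR159897, against 492 and 628 FPKM in Saline_GR159897. In the vehicle arm it lay between 198 and 502 FPKM in DNBS_Vehicle, against 329 and 600 FPKM in Saline_Vehicle. The glial sums did not overlap in the GR159897 arm and overlapped in the vehicle arm. The sums of the other lists overlapped between DNBS and saline. Smooth muscle markers summed to 297 to 6764 FPKM with DNBS and 1726 to 4349 FPKM with saline, with medians of 3004 FPKM with DNBS and 3237 FPKM with saline. In every library they exceeded the sum of the glial markers, so levels of the pathway genes cannot be assigned to glia alone. The median sum of neuron markers was 235 FPKM with DNBS and 242 FPKM with saline, that of fibroblast markers 70.5 FPKM with DNBS and 60.5 FPKM with saline, and that of macrophage markers 84.9 FPKM with DNBS and 62.5 FPKM with saline. Adipocytes make fatty acids at a high rate. Of 8 markers 7 were found, and they summed to 2.48 to 46.0 FPKM with DNBS and 1.79 to 320 FPKM with saline, with the highest value in Saline_Vehicle replicate 3, where all 7 reached 1 FPKM. In each other library 1 to 3 of the 7 did. In the GR159897 arm the adipocyte sums were 7.67 to 18.6 FPKM with DNBS and 1.79 to 11.4 FPKM with saline, and the ranges overlapped. The part of these cells in the changes was not tested.

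Other genes of lipid synthesis and sterol handling were counted from a list of 38, of which 34 could be tested. With DNBS 29 had negative changes, their median was -0.58, and 4 passed, all lower. Of all genes tested, 61.2% had negative changes, the median was -0.18 and 6.83% passed as lower. Acacb, the mitochondrial acetyl-CoA carboxylase, had 0.923 ± 0.601 FPKM with DNBS and 3.20 ± 0.894 FPKM with saline, and a log2 change of -1.17 ± 0.27 (limma adjusted p = 0.0216). Cyp27a1, which makes 27-hydroxycholesterol, had 2.56 ± 1.54 FPKM with DNBS and 8.25 ± 2.62 FPKM with saline (SD, n = 6 each) and a change of -1.42 ± 0.33 (adjusted p = 0.0245). Lpcat3, which places polyunsaturated fatty acids in phospholipids, had 2.06 ± 1.07 FPKM with DNBS and 10.7 ± 8.06 FPKM with saline, and a change of -1.74 ± 0.43 (adjusted p = 0.0277). Elovl5, an elongase of polyunsaturated fatty acids, had 18.6 ± 12.3 FPKM with DNBS and 40.5 ± 11.9 FPKM with saline, and a change of -1.24 ± 0.35 (adjusted p = 0.0462). In the other 5 comparisons 0 of the 34 passed.

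Within the vehicle arm alone, DNBS_Vehicle against Saline_Vehicle, 26 of the 31 genes were negative and 5 positive, against 56.8% negative among all genes. The median was -0.42 against -0.11 over all genes. Of the 31, 0 passed, against 0.321% of all genes (0.0861% lower). An unadjusted p under 0.05 was reached by 1 of the 31, Fasn, against 622 higher and 990 lower among all genes. Fasn was at -1.70 ± 0.52 (limma adjusted p = 0.205), Acaca at -0.63 ± 0.29 (0.399), Scd1 at 1.86 ± 0.92 (0.426) and Npc1 at -0.69 ± 0.38 (0.480). The Srebf1 locus was at -2.22 ± 0.56 (adjusted p = 0.131). For Acaca, Dhcr7, Fasn, Fdft1, Npc1, Npc2 and Pmvk, 7 of 31, the 3 DNBS libraries all lay below the 3 saline libraries, as they did for 14.9% of all genes, and 0 of 31 lay above, against 9.53% of all genes. Fdft1 had 27.17, 11.49 and 14.87 FPKM in DNBS_Vehicle against 41.99, 29.07 and 35.34 FPKM in Saline_Vehicle. Loci named Fdft1 without an annotated transcript held a further 3.72 FPKM in DNBS_Vehicle replicate 1 and 0.79 FPKM in Saline_Vehicle replicate 2. The absence of overlap thus holds for the annotated locus only. Dhcr7 had 1.00, 0.92 and 0.86 FPKM in DNBS_Vehicle against 4.47, 1.13 and 2.10 FPKM in Saline_Vehicle.

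Within the GR159897 arm, DNBS_GR159897 against Saline_GR159897, 29 of the 31 were negative, against 62.4% of all genes. The median was -1.10 against -0.27 over all genes. Of the 31, 0 passed, against 1.38% of all genes (0.994% lower). An unadjusted p under 0.05 was reached by 8 of the 31, all lower, against 737 higher and 2163 lower among all 12777 genes. Those with the smallest p were Ebp at -1.78 ± 0.43 (limma adjusted p = 0.0600), Nsdhl at -1.86 ± 0.49 (0.0691), Npc2 at -1.92 ± 0.55 (0.0833) and Fasn at -1.79 ± 0.52 (0.0863). The Srebf1 locus was just past the threshold, at -2.51 ± 0.56 (adjusted p = 0.0465), and was called in only 6 of 25 alternatives, over which its adjusted p reached 0.421. Leaving out any 1 of the 12 libraries other than DNBS_GR159897 replicate 3 ended the call. Npc2 had 10.50, 48.30 and 42.63 FPKM in DNBS_GR159897 against 109.10, 98.64 and 122.01 FPKM in Saline_GR159897. For 12 genes the 3 DNBS libraries lay below the 3 saline libraries: Abca1, Acaca, Ebp, Fasn, Hsd17b7, Insig1, Npc1, Npc2, Nsdhl, Pmvk, Scap and Scd2, and for all 3 merged loci; 17.6% of all genes did so, and 0 of 31 lay above, against 6.67%. The median was -0.59 with 24 genes negative without Saline_GR159897 replicate 1, and -0.72 with 27 negative without DNBS_GR159897 replicate 1.

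The antagonist was compared with its vehicle after DNBS. In DNBS_GR159897 against DNBS_Vehicle 26 of the 31 genes were negative and 5 positive, against 62.7% negative among all genes. The median of the 31 was -0.45 against -0.21 over all genes. None passed the limma test, nor did any of all genes (0%), and 2 of the 31 had an unadjusted p under 0.05, both lower, against 312 higher and 727 lower among all genes. Ebp had 6.98, 15.99 and 8.92 FPKM in DNBS_GR159897 against 27.20, 25.53 and 23.70 FPKM in DNBS_Vehicle, and a change of -1.26 ± 0.43 (adjusted p = 0.607). Abca1 had 0.79, 2.87 and 2.94 FPKM in DNBS_GR159897 against 7.53, 11.73 and 2.51 FPKM in DNBS_Vehicle, and a change of -1.27 ± 0.51 (adjusted p = 0.607). The values did not overlap for Ebp and did for Abca1. Npc2 was at -1.18 ± 0.55 (adjusted p = 0.616) and Nsdhl at -1.0 ± 0.49 (0.618). Ebp, Hsd17b7, Npc1, Npc2 and Scd1, 5 of 31, lay below in every DNBS_GR159897 library, against 6.89% of all genes, and 0 of 31 lay above, against 3.19%. Without DNBS_GR159897 replicate 1, 20 genes were negative and 11 positive, with medians of -0.15 for the pathway and -0.06 for all genes. Without that library Npc2 was at -0.51, Nsdhl at -0.74, Abca1 at -0.89 and Ebp at -1.03.

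The same comparison was made after saline. In Saline_GR159897 against Saline_Vehicle 21 of the 31 genes were positive and 10 negative, against 46.6% positive among all genes. The median of the 31 was 0.24 against -0.03 over all genes. None passed the limma test, nor did any of all genes (0%), and 0 of the 31 had an unadjusted p under 0.05, against 83 higher and 133 lower among all genes. Scd2 was at 1.47 ± 1.00, Scd1 at 1.3 ± 0.92, Insig1 at 0.85 ± 0.61 and Insig2 at -0.88 ± 0.64, each with an adjusted p of 1. Leaving out 1 library moved these values widely, over -0.07 to 2.49 for Scd2, 0.47 to 2.43 for Scd1, 0.20 to 1.35 for Insig1 and -1.23 to -0.50 for Insig2, with the adjusted p at 1 throughout. Scd1 was at 2.43 without Saline_Vehicle replicate 2 and at 0.47 without Saline_Vehicle replicate 3, and Insig1 was at 0.20 without Saline_GR159897 replicate 1 and 0.31 without Saline_Vehicle replicate 2. Scap was above in every Saline_GR159897 library (3.04% of all genes were), and Abca1 and Insig2 below (4.18% were). Insig2 had 15.95, 10.18 and 5.19 FPKM in Saline_GR159897 against 22.07, 16.37 and 17.35 FPKM in Saline_Vehicle. Without Saline_GR159897 replicate 1 the balance turned, with 13 genes positive, 18 negative and a median of -0.08.

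The difference between the arms in their response to DNBS, tested as the interaction, passed for 0 of the 31 genes and for 0% of all genes (limma), with a median of -0.68 against -0.18 over all genes. That median was -0.34 without Saline_GR159897 replicate 1, -0.25 without DNBS_GR159897 replicate 1, -0.16 without both, and 0.07, with 16 genes positive and 15 negative, with library weights. Scaled to the annotated total it was -0.28, with the median of all genes at 0.15. Ebp (-1.46 ± 0.61), Scd1 (-2.66 ± 1.3), Npc2 (-1.50 ± 0.78) and Hsd17b7 (-1.28 ± 0.74) had the smallest p, each with an adjusted p of 0.957. An unadjusted p under 0.05 was reached by 1 of the 31, which was negative, and by 144 higher and 313 lower among all genes. For the Srebf1 locus the difference was -0.29 (adjusted p = 0.975). The SE of 0.61 to 1.3 for these 4 genes leaves room for differences of several fold.

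One library had most of the mevalonate and sterol genes at their highest level. In Saline_GR159897 replicate 1, 19 of the 31 genes had the highest value of all 12 libraries, as did 14.9% of all genes. Of 17 mevalonate and sterol genes 15 did (88.2%), with Ggps1 and Nsdhl as the exceptions, and their level was 3.50 times the median of the other 11 libraries, taken as a median over the 17 genes. Fdft1 was at 135.92 FPKM there and at 16.68 and 24.35 FPKM in the other Saline_GR159897 libraries. Idi1 was at 62.29 FPKM there and at 23.17 and 12.01 FPKM in the others of its group. Hmgcs1 was at 90.64 FPKM there and at 31.88 and 15.05 FPKM in the others of its group. The library also had the highest share of summed FPKM on annotated loci of the 12. That share was 95.1%, against 75.4% to 92.6% in the other saline libraries. The part of the share in this pattern was not tested.

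Other genes of the pathway differed in Saline_GR159897 replicate 1 by role. Insig1, a target gene of SREBPs, was 7.51 times the median of the others, and Insig2 1.16 times. The Srebf1 locus, at 141.02 FPKM, was the highest of the 12. Of 6 fatty acid genes 2 were highest there, Fasn at 4.85 times and Acly at 1.70 times the median of the others. Elovl6 was at 3.6 times, Scd2 at 3.26 times, Acaca at 1.3 times and Scd1 at 0.295 times. The median ratio of the 6 was 2.48. None of the 4 tested transport genes was highest there, and their median ratio was 1.07. Of the 34 other lipid genes 13 were highest there (38.2%). The same library had the highest value for 3 of 7 glial markers, with a median ratio of 1.88. These 7 differ from the 7 summed above, with Gfap in place of Foxd3. Gfap was among the 3, and its blank values in Saline_Vehicle were skipped. The other 11 libraries include the 6 with DNBS, where the glial sum was 10.1 to 502 FPKM. In this library that sum was 602.5 FPKM, inside the saline range of 329 to 628 FPKM. Its S100b, at 156.64 FPKM, was the lowest of the saline libraries. Its Sox10, at 238.64 FPKM, was exceeded only in Saline_Vehicle replicate 3. Only markers that reached 1 FPKM in at least 3 libraries entered these ratios. The median ratio was 0.182 for 7 epithelial, 0.104 for 3 adipocyte, 0.421 for 8 macrophage, 0.499 for 8 smooth muscle and 0.621 for 5 fibroblast markers. For 8 neuron markers it was 1.09, with 1 highest there. For 3 neutrophil markers it was 0.0214, where the other 11 libraries include the 6 with DNBS. Saline_Vehicle held 0.37 to 1.94 FPKM of the 6 neutrophil markers, and this library 0.34 FPKM. The part of cell composition in this pattern was not tested. With this library left out, the average DNBS change was negative for 27 genes with a median of -0.59, and Fasn alone passed (-1.45, limma adjusted p = 0.0345).

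**Figure D4:**
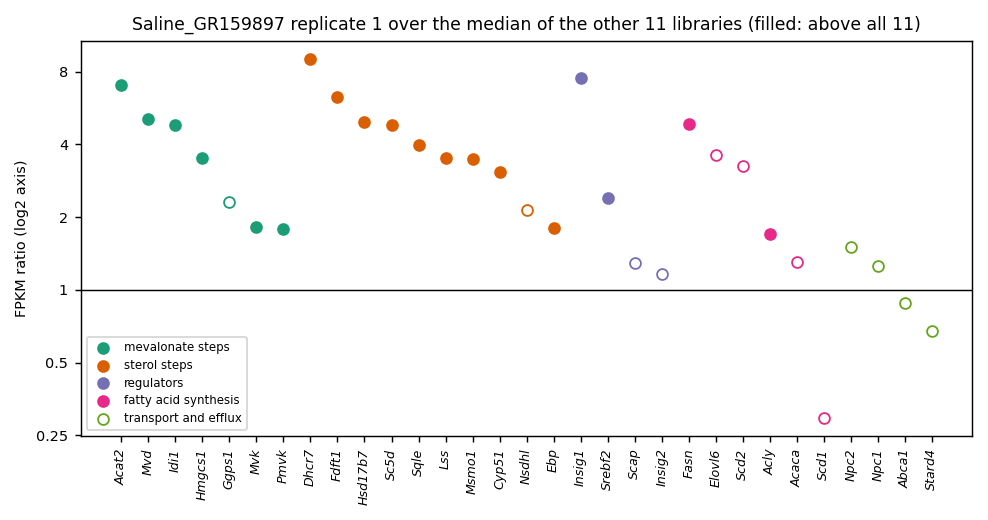
FPKM in Saline_GR159897 replicate 1 divided by the median of the other 11 libraries (log2 axis), for the 31 tested genes grouped by role. Filled points exceed all 11 other libraries. The mevalonate and sterol genes lie between 1.78 and 9.06, and the transport genes between 0.676 and 1.51.

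The paralog pairs differed between libraries in their balance. Scd1 and Scd2 both place the first double bond in saturated fatty acids. Scd1 had 3.05, 17.33 and 12.16 FPKM in DNBS_GR159897, 5.61, 19.01 and 37.28 FPKM in Saline_GR159897, 25.47, 22.73 and 25.24 FPKM in DNBS_Vehicle, and 3.61, 32.51 and 1.21 FPKM in Saline_Vehicle. Scd2 had 34.77, 61.45 and 67.53 FPKM in DNBS_GR159897, 319.53, 208.17 and 157.17 FPKM in Saline_GR159897, 103.46, 98.14 and 57.66 FPKM in DNBS_Vehicle, and 324.03, 8.45 and 161.74 FPKM in Saline_Vehicle. In 11 libraries Scd2 was the higher one, and in Saline_Vehicle replicate 2 the order was the other way round. The share of Scd1 in the sum of both was 79.4% there, against 1.1% and 0.743% in the other Saline_Vehicle libraries, and 18.8% to 30.4% in DNBS_Vehicle. Sox10 was at 15.43 FPKM in that library and at 179 and 248 FPKM in the other Saline_Vehicle libraries. S100b, another glial marker, did not set it apart, with 201.82 FPKM there and 181.94 and 212.99 FPKM in the others. The glial markers summed to 329 FPKM there and to 484 and 600 FPKM in the others. Only 1.68% of the sequence of Scd1 and 4.01% of that of Scd2 recurs in other genes. Without Saline_Vehicle replicate 2, the change of Scd2 in Saline_GR159897 against Saline_Vehicle was -0.07 in place of 1.47.

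**Figure D5:**
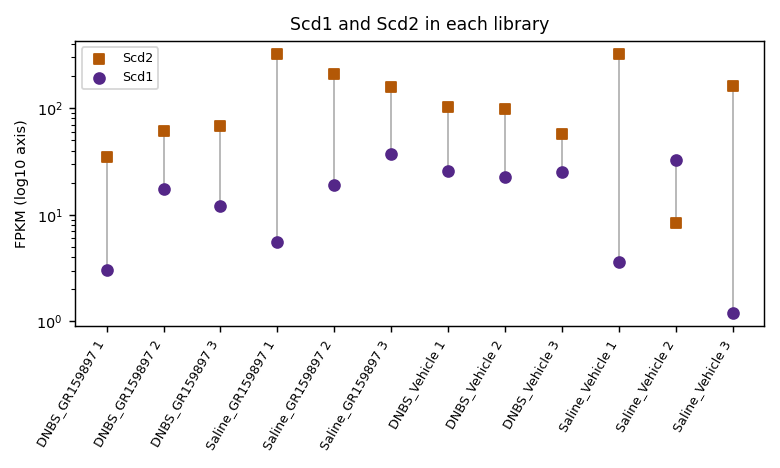
FPKM (log10 axis) of Scd2 (squares) and Scd1 (circles) in each of the 12 libraries, with a line joining the pair of each library. Scd2 is the higher of the pair in every library except Saline_Vehicle replicate 2, where Scd1 has 32.51 FPKM and Scd2 8.45 FPKM.

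Insig1 and Insig2 both retain Scap, and Insig1 is the one that SREBPs induce. Insig1 had 2.14, 4.43 and 4.46 FPKM in DNBS_GR159897 against 33.50, 5.96 and 10.15 FPKM in Saline_GR159897. With vehicle it had 6.83, 3.78 and 3.65 FPKM in DNBS_Vehicle against 11.39, 2.63 and 9.09 FPKM in Saline_Vehicle. In the GR159897 arm all 3 DNBS libraries were lower, and in the vehicle arm the groups overlapped. Insig2 had 1.90, 13.76 and 16.95 FPKM in DNBS_GR159897 and 8.19, 17.98 and 10.28 FPKM in DNBS_Vehicle. Insig1 made up 32.7% ± 17.6 of the sum of both in DNBS_GR159897, 56.9% ± 17.4 in Saline_GR159897, 29.7% ± 14.4 in DNBS_Vehicle and 27.4% ± 11.8 in Saline_Vehicle (SD, n = 3 each). These shares overlap between DNBS and saline in both arms.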

How the data were processed

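The authors deposited 1 table of FPKM values per assembled locus and library. StringTie 1.3, HISAT2 2.0, FastQC 0.10.1 and cutadapt 1.10 are named in the submitters' processing notes, without saying what each did. No genome build is given there, nor elsewhere among the sources used here. Of 99547 loci, the 24432 with an annotated Ensembl transcript were kept, 1 per symbol by the highest mean, which left out 38 duplicates. Groups follow the titles of the samples. Depth is unknown in FPKM, so no counting intervals are given.

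Values were analysed as log2(FPKM + 1), so changes of low genes are understated. Genes had to reach 1 FPKM in 3 or more libraries. A model with 1 coefficient per group over all 12 libraries (8 residual degrees of freedom) was fitted to 12777 genes with limma 3.58.1 in R 4.3.3 (trended, robust prior). Gfap was left out for blank values in 3 Saline_Vehicle libraries. Tests were two-sided. Benjamini-Hochberg adjustment ran over all genes tested, with a threshold of 0.05. The procedure was tested on simulated data, with independent noise for each gene and changes added in DNBS_Vehicle only. Shifts of whole libraries, cell mixtures and the average over arms were not part of that simulation. The contrasts were 4 between pairs of groups, the average over arms and the interaction.

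The genes and lists were chosen with earlier results of these data known. Named with values were the genes past the threshold or, where there was none, the 4 with the smallest p, the 4 with the highest mean, and the pairs of paralogs. Genes whose groups do not overlap were named or counted. Idi1, Fdft1, Hmgcs1, Pmvk, Stard4, Dhcr7 and Sqle were given further values after their levels were seen. Alternatives changed the log offset, filter, scaling, covariates, weights, variance prior, choice of loci and libraries. Positions come from GENCODE (GRCm38) and promoters from RefSeq (GRCm38.p6). Shared sequence was counted as the share of 50-base words of the transcripts of a gene that also occur in transcripts of other genes. Motifs were chosen after the values were seen. Exons of Hmgcs1, Idi1, Fdft1, Lss, Cyp51, Srebf1, Scap, Ggps1, Npc1 and Elovl6 overlap genes on the other strand, and those of Scd2 overlap Mir5114 on the same strand, so reads there are uncertain. Python 3.11.15 was used with numpy 2.4.6, pandas 2.3.3 and matplotlib 3.10.9.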

Additional observations from a re-analysis of the deposited data

Results flagged for a closer look

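The table also lists 106 loci that carry the name of a pathway gene (16 names) but no annotated transcript, which none of the comparisons used. Their summed FPKM lay between 8.14 and 25.06 in Saline_Vehicle. It was above that range in all 3 DNBS_GR159897 libraries, at 307.86, 113.47 and 35.07 FPKM in replicates 1, 2 and 3. It was above it in Saline_GR159897 replicate 2, at 52.15 FPKM. In DNBS_Vehicle it was 61.43, 25.1 and 29.17 FPKM, of which 25.1 exceeds the range by little. In DNBS_GR159897 replicate 1 these loci held 61.9% of the FPKM that carried a name of the pathway, and those named Acaca alone, 61 of the loci, held 202.74 FPKM. That library also has the lowest share of summed FPKM on annotated loci, 22.6%. The cause was not tested. Groups of 3 libraries were not searched for single outlying samples.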

How the results depend on the processing

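For the average DNBS change, 4 pathway genes passed. The count was 2 with an offset of 0.1, 1 without a filter, 2 when scaled to the annotated total, 1 with median-of-ratios scaling, 1 with a sex term, 2 with a replicate block, 0 with the annotated share as a term, 7 with library weights and 2 with all loci tested. It was 2 without both replicate 1 of Saline_GR159897 and replicate 1 of DNBS_GR159897, an alternative chosen after seeing the data. Leaving out 1 library gave 1 to 4. It gave 1 or 2 without any of the 6 vehicle libraries and without Saline_GR159897 replicate 1 or 3, with Fasn among them each time. All genes past the threshold numbered 1226, and 442 without a filter, 805 with a sex term, 68 with the annotated share, 3009 with weights, 755 without both libraries, and 402 to 1645 leaving out 1. For DNBS_GR159897 against Saline_GR159897, 0 pathway genes passed, against 1 with no trend (Ebp), 4 with weights, 1 with all loci tested and 0 to 1 leaving out 1 library. All genes there numbered 176, and 42 with the offset, 18 without a filter, 91 and 94 with the 2 scalings, 25 with sex, 31 with the replicate block, 1 with the annotated share, 2158 with weights, 662 with all loci, 18 without both libraries and 4 to 601 leaving out 1. For DNBS_Vehicle against Saline_Vehicle, weights gave 1 pathway gene (Fasn) in place of 0, and leaving out 1 library 0 to 0. All genes there numbered 41, and 21 with the offset, 13 without a filter, 24 with sex, 18 with the replicate block, 514 with weights, 246 without both libraries and 0 to 183 leaving out 1. For DNBS_GR159897 against DNBS_Vehicle, 0 of all genes became 2 with the offset, 3 scaled to the annotated total, 69 with weights, 79 with all loci and 0 to 6 leaving out 1. For Saline_GR159897 against Saline_Vehicle, 0 became 1 with the offset, each scaling or the annotated share, 5 with weights, 3 without both libraries and 0 to 2 leaving out 1. For the interaction, 0 became 2 with the offset, 1 with a filter over 6 libraries, 1 scaled to the annotated total, 5 with weights and 0 to 2 leaving out 1. In these 3 comparisons 0 pathway genes passed in every alternative. The cause of these shifts was not tested.

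Some directions turned among values that passed no test. In Saline_GR159897 against Saline_Vehicle, Scd2 ranged from -0.066 without Saline_Vehicle replicate 2 to 2.49 leaving out 1 library, and the Srebf1 locus (-0.15) from -0.68 to 0.37, with 0.013 without Saline_Vehicle replicate 1 and 0.37 without Saline_GR159897 replicate 3. In DNBS_GR159897 against DNBS_Vehicle that locus (-0.44) was at 0.022 scaled to the annotated total and 0.067 with the annotated share. Its interaction (-0.29) was at 0.16 scaled to the annotated total, 0.020 with median-of-ratios scaling, 0.094 with the annotated share, 0.043 without DNBS_Vehicle replicate 3, 0.24 without Saline_GR159897 replicate 1 and 0.20 without both libraries, and ranged from -0.81 to 0.24 leaving out 1 library. Of 18 pairs of libraries with the same replicate number, 2 deviated together with a correlation over 0.1 (range -0.09 to 0.20). These correlations cannot decide whether libraries with the same number were handled together, because single odd libraries weigh on them. The labels do not say. The replicate block gave 2 pathway genes for the average change.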
